A study of Homo sapiens with 8 samples.

Results

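The kinetochore and centromere genes were 37 genes named by their function, of 43317 genes on the array, and all 37 had a probe. Expression was measured with 8 Agilent 2-colour oligonucleotide arrays on 1 slide, each comparing transfected cells, labelled with Cy5, with mock cells of the same line, labelled with Cy3. PC3, a prostate cancer line derived from a bone metastasis, received miR-99a-3p, miR-100-3p or an arm of miR-150 (miR-150-5p or miR-150-3p). FaDu, a hypopharyngeal squamous cell carcinoma line, received either arm of the miR-99a hairpin, miR-99a-5p or miR-99a-3p. PANC-1, a pancreatic cancer line, received si-FOXQ1-1 or si-FOXQ1-2, siRNAs against the forkhead factor FOXQ1. RNAs were delivered with Lipofectamine RNAiMAX, mock cells carry the label no transfection, and none of the 8 arrays used a control miRNA or control siRNA. An effect of the delivery, or of any small RNA, therefore cannot be told apart from that of the named RNA. The study asked which genes are lowered by these RNAs, in particular by miR-99a-3p in prostate cancer cells. Each condition has 1 array, so no test was made. A value below is the log2 ratio of transfected over mock cells, and the error beside it is the scanner software's error of the spot, which leaves out the variation between cultures. Dyes were never swapped, so that an effect of the dyes and of the transfection cannot be told apart on any array. Since RNA of the whole culture was measured, fewer cells with an mRNA and less of the mRNA per cell cannot be told apart either.

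The centromere is the stretch of chromosome marked by nucleosomes with the histone variant CENPA, and the kinetochore is the protein assembly built on it in mitosis to hold the spindle microtubules. CENPA is deposited by the chaperone HJURP, and the constitutive centromere-associated network (CCAN) binds it throughout the cell cycle. In mitosis the KNL1, MIS12 and NDC80 complexes join the CCAN, and NDC80 with the SKA complex binds microtubules. The inner centromere holds the chromosomal passenger complex and the shugoshins, and the checkpoint proteins on unattached kinetochores keep CDC20 from activating the anaphase-promoting complex (APC/C). Many of these genes are transcribed mainly in cells that are about to divide. The 37 genes are described below in these parts, 13 in centromeric chromatin and CCAN, 5 in the inner centromere, 12 in the NDC80/MIS12 network with SKA, and 7 in the checkpoint and corona.

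The mature miRNAs with an entry in RefSeq (GRCh38.p14) are shown because the arrays differ by them. They run 5′ to 3′, and capitals mark the seed, bases 2 to 8, with which a miRNA pairs to its targets.
miR-99a-3p: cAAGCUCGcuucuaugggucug
miR-100-3p: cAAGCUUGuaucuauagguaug
miR-99a-5p: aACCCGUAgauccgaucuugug
miR-99a-3p (chr21:16539138-16539159, plus strand) and miR-100-3p (chr11:122152240-122152261, minus strand) have 17 of 22 bases in common. Counted from the 5′ end and with the base of miR-99a-3p first, they differ by C7U, C9U, U10A, G16A and C20A. C7U lies in the seed, where 6 of 7 bases are the same. miR-99a-5p (chr21:16539101-16539122, plus strand) comes from the other arm of the miR-99a hairpin, and it has another seed.

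All 37 genes were well above background in at least 1 channel on all 8 arrays, against 19184 to 20919 of all genes per array. Of their 296 values, 292 were measured in both channels, and the other 4 all belong to the PC3 miR-99a-3p array, where CENPH, CENPI, CENPK and SKA1 were not well above background in the transfected cells. The spot errors of the 292 values were between 0.204 and 0.438, with a median of 0.211. Among all detected genes the median log2 ratio lay between −0.03 and 0.02 on the 8 arrays. FOXQ1, the target of the siRNAs, had a log2 ratio of −2.16 (spot error 0.285) with si-FOXQ1-1 and −2.12 (0.283) with si-FOXQ1-2. The squamous markers KRT5, KRT14, TP63 and DSG3 were above background in both FaDu mock channels and in none of the PC3 and PANC-1 mock channels, whereas SFN, the other squamous marker of the list, was above background in the mock channels of all lines, as were the epithelial markers KRT8, KRT18, CDH1 and EPCAM. The prostate marker KLK3 was not above background in any mock channel.

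The kinetochore and centromere genes were lower in PC3 cells with miR-99a-3p and higher in FaDu cells with the same miRNA. In PC3 their median log2 ratio was −1.97, 36 of the 37 lay below 0, against 48.8% of all detected genes, and 29 lay below −1, against 7.39% of all. Counting only the 33 genes measured in both channels, 25 lay below −1, and 28 did with the other 4 taken at the bounds given below. In FaDu the median was 0.86, 36 of the 37 lay above 0, against 47.8% of all detected genes, and 10 lay above 1, against 8.25% of all. No member lay above 1 in PC3, against 4.23% of all, or below −1 in FaDu, against 9.37% of all. Cell type markers moved on the same arrays. All 5 squamous markers lay below 0 in FaDu cells with miR-99a-3p, DSG3 at −1.94, KRT14 at −1.66, KRT5 at −1.17, TP63 at −0.78 and SFN at −0.35, and their summed signal was 238009 in mock and 127257 in transfected cells. Of the 4 epithelial markers, 3 lay above 0 there and CDH1 at −0.59, with a sum of 112913 in mock and 156951 in transfected cells. In PC3 cells with miR-99a-3p, 3 of them lay below 0 and CDH1 at 0.85, and the sums were 51103 and 35146. Of the 4 markers of other cell types, the fibroblast gene COL1A1 had 1.53 (spot error 0.285) in FaDu and 2.84 (0.334) in PC3. CD3E, a T cell marker, was above background in neither channel of either array. The endothelial marker PECAM1 was above background in neither channel in FaDu, but in PC3 it was measured in both, at 0.57 (0.251). PTPRC, the remaining marker, was above background only in the mock channel on both arrays. The part of these markers in the members' values was not tested.

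The other arrays gave smaller values. In PC3 the median was −0.58 with miR-150-3p, where all 37 genes lay below 0, against 51.7% of all detected genes. It was −0.55 with miR-100-3p, where 36 lay below 0, against 52.6% of all, and −0.26 with miR-150-5p, where 29 lay below 0, against 50.9% of all. Past −1 there were 3 members with miR-150-3p (6.68% of all genes), namely SPC25, NUF2 and SKA3, and none with miR-100-3p (3.34%) or miR-150-5p (4.49%). Above 1 there was no member with miR-100-3p (0.987% of all), miR-150-5p (0.664%) or miR-150-3p (2.69%). FaDu cells with miR-99a-5p had a median of 0.33, with 34 members above 0 (45.6% of all) and 1, CENPI at 1.00, above 1 (0.851%) and none below −1 (4.86%). In PANC-1 the median was 0.25 with si-FOXQ1-1 and 0.02 with si-FOXQ1-2, where 29 members (46.5% of all) and 21 members (47.9% of all) lay above 0. No member lay below −1 (3.31% and 3.29% of all) or above 1 (0.905% and 0.412%) there. FOXQ1 itself had nearly the same ratio with both siRNAs, as given above.

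Smaller and larger differences were counted too. Below −0.58 lay 32 members with miR-99a-3p in PC3 (16.7% of all genes), 28 of them measured in both channels, 19 with miR-150-3p (14.9%), 16 with miR-100-3p (8.96%) and 3 with miR-150-5p (10.2%). Above 0.58 lay 27 members with miR-99a-3p in FaDu (18.3%), 10 with miR-99a-5p (4.9%), 1 with si-FOXQ1-1 (4.03%) and 0 with si-FOXQ1-2 (2.97%). The 1 member above 0.58 with si-FOXQ1-1 was CENPI at 0.83. A deposited ratio below −2 was given for 18 members in PC3 with miR-99a-3p (1.43% of all), 14 of them measured in both channels, and none lay above 2 in FaDu (1.5%).

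**Figure D1:**
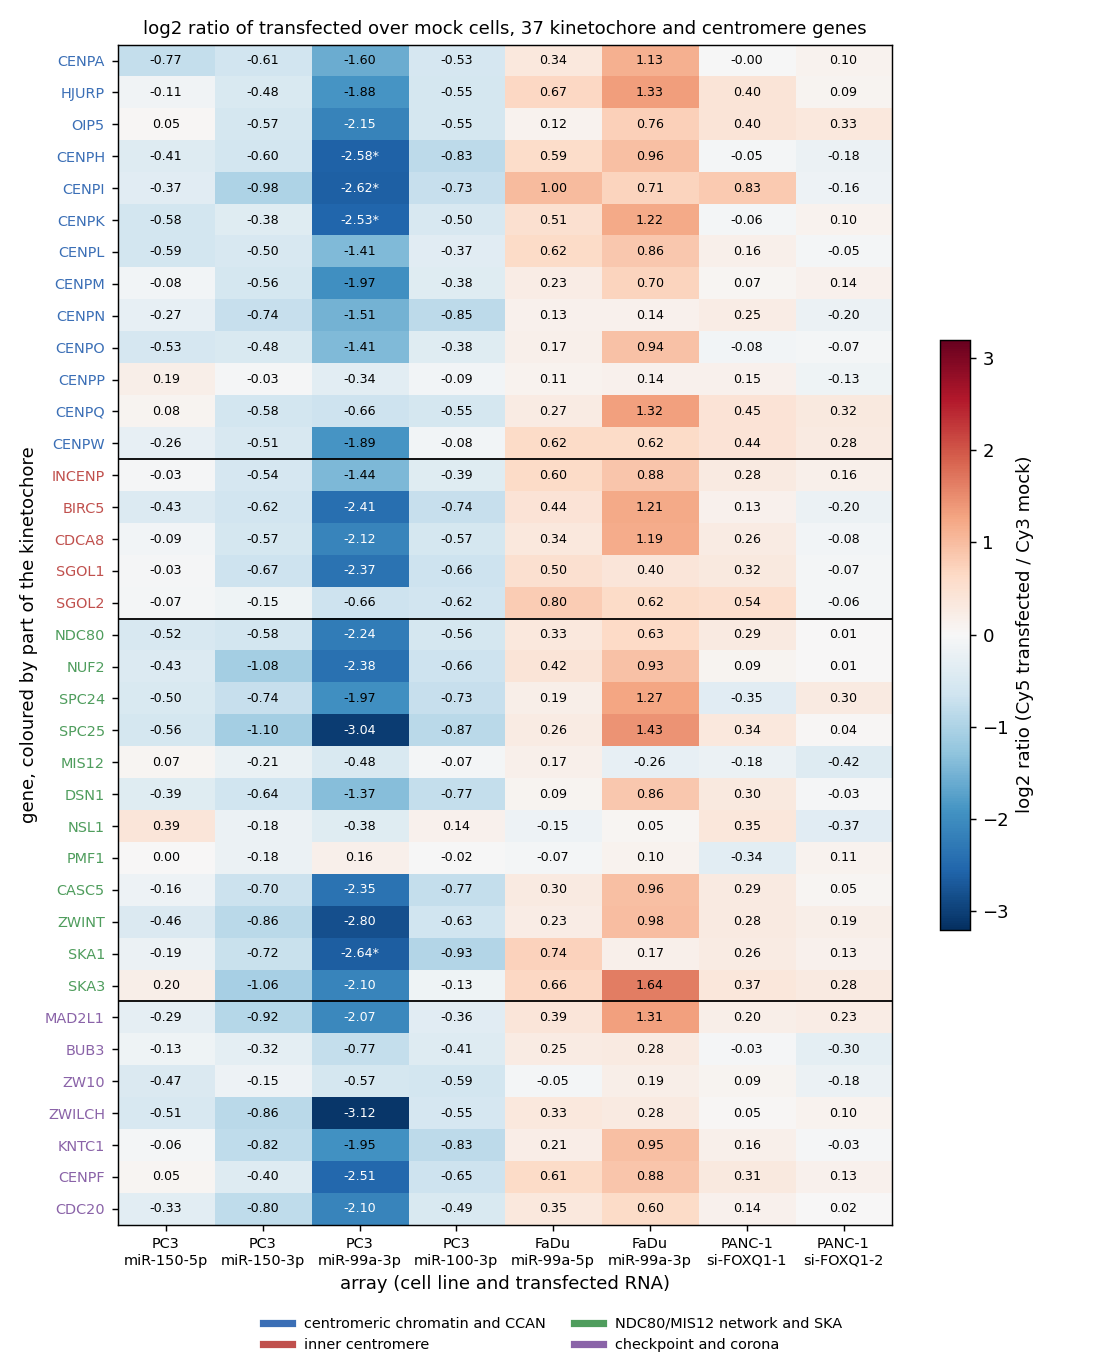
Heat map of the log2 ratio of transfected over mock cells for the 37 genes (rows, in 4 parts) on the 8 arrays (columns), with the value in each cell and a star where the transfected signal was not well above background. The PC3 miR-99a-3p column is the bluest, with values down to −3.12 (ZWILCH), and the FaDu miR-99a-3p column the reddest, with values up to 1.64 (SKA3).

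The 4 parts had similar medians in PC3 cells with miR-99a-3p. The median was −1.88 in centromeric chromatin and CCAN, −2.12 in the inner centromere, −2.17 in the NDC80/MIS12 network with SKA and −2.07 in the checkpoint and corona. Without the 4 genes not well above background it was −1.55 in centromeric chromatin and CCAN and −2.10 in the NDC80/MIS12 network. In FaDu cells with miR-99a-3p the medians were 0.86, 0.88, 0.90 and 0.60 in the same order. On both arrays the parts differed among each other by less than the genes within a part, where values ran from −3.04 to 0.16 in the NDC80/MIS12 network of PC3 alone. With miR-150-3p the part medians were between −0.80 and −0.56, and with miR-100-3p between −0.64 and −0.53.

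**Figure D2:**
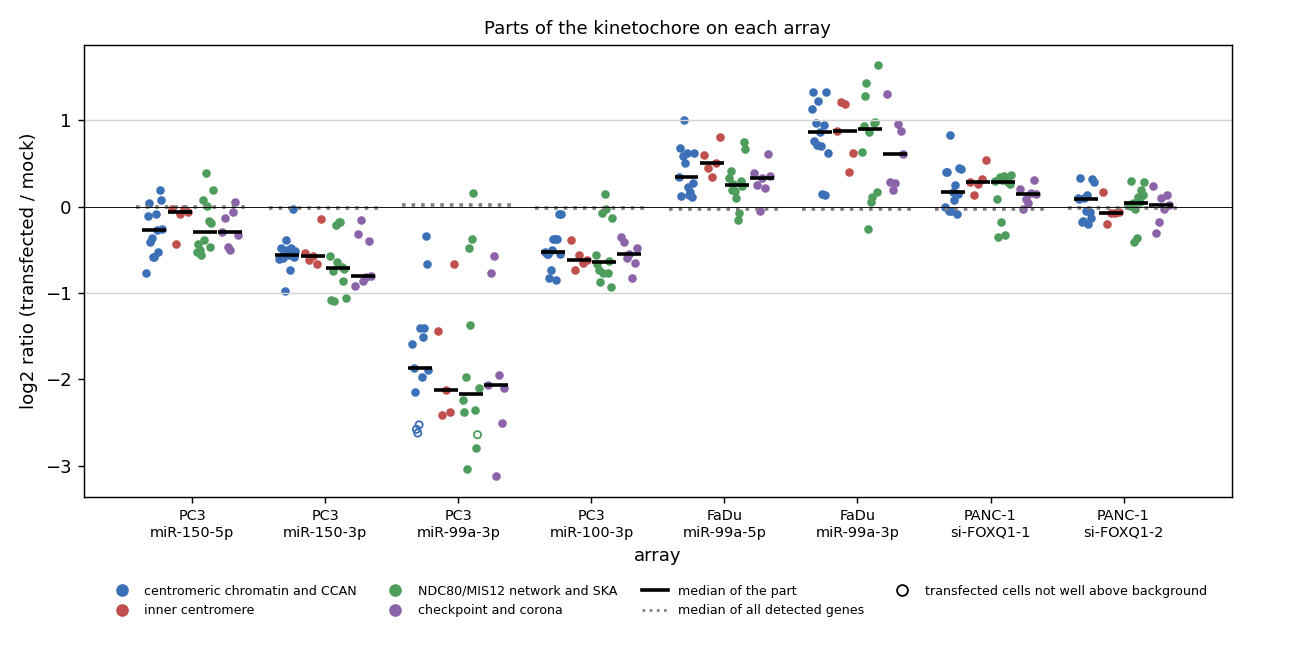
Log2 ratio (vertical axis) of each of the 37 genes on each array (horizontal axis), with 1 point per gene coloured by part, black bars at the median of each part, dotted lines at the median of all detected genes and open points where the transfected signal was not well above background. The 4 part medians of the PC3 miR-99a-3p array lie between −2.17 and −1.88, and those of the FaDu miR-99a-3p array between 0.60 and 0.90.

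In centromeric chromatin, CENPA in PC3 cells with miR-99a-3p gave a signal of 992 in mock and 328 in transfected cells and thus −1.60 (spot error 0.253), and with the same miRNA it gave 1.13 (0.232) in FaDu cells. HJURP, its chaperone, had −1.88 in PC3 and 1.33 in FaDu. OIP5, a subunit of the MIS18 complex that licenses new CENPA, had −2.15 (spot error 0.285) with miR-99a-3p, −0.57 with miR-150-3p, −0.55 with miR-100-3p and 0.05 with miR-150-5p in PC3. In FaDu it had 0.76 with miR-99a-3p and 0.12 with miR-99a-5p, and in PANC-1 it had 0.40 with si-FOXQ1-1 and 0.33 with si-FOXQ1-2. OIP5 was thus lower than mock beyond its error on 3 of the 4 PC3 arrays.

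In the CCAN, 5 of the 7 genes measured in both channels lay below −1 in PC3 cells with miR-99a-3p, against 7.39% of all detected genes. All 10 CCAN genes lay above 0 in FaDu with that miRNA, against 47.8% of all. CENPM, a subunit beside CENPI, had −1.97 with miR-99a-3p in PC3, −0.56 with miR-150-3p, −0.38 with miR-100-3p and −0.08 with miR-150-5p. It had 0.70 with miR-99a-3p and 0.23 with miR-99a-5p in FaDu, and 0.07 and 0.14 with the siRNAs in PANC-1. The 3 subunits CENPH, CENPI and CENPK, which belong to 1 subcomplex, are 3 of the 4 genes without a signal well above background in these transfected cells. CENPH was at least 5.29-fold lower there, with a mock signal of 388, CENPI at least 2.76-fold (203) and CENPK at least 1.17-fold (85.7). These bounds divide the mock signal by 73.4, the highest Cy5 signal on the array that was not called above background, and they have no order among each other. In FaDu the same genes were measured in both channels, at 0.96 for CENPH, 0.71 for CENPI and 1.22 for CENPK.

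CENPN, which reads the CENPA nucleosome, had −1.51 with miR-99a-3p in PC3, −0.85 with miR-100-3p, −0.74 with miR-150-3p and −0.27 with miR-150-5p, but only 0.14 (spot error 0.204) with miR-99a-3p and 0.13 with miR-99a-5p in FaDu, and 0.25 and −0.20 with the siRNAs in PANC-1. Its partner CENPL had −1.41 in PC3 and 0.86 in FaDu with miR-99a-3p. CENPO had −1.41 and 0.94, and CENPW, a histone-fold subunit, −1.89 and 0.62. CENPQ, which forms a complex with CENPO, had the smaller values −0.66 with miR-99a-3p, −0.58 with miR-150-3p, −0.55 with miR-100-3p and 0.08 with miR-150-5p in PC3. In FaDu it had 1.32 with miR-99a-3p and 0.27 with miR-99a-5p, and in PANC-1 0.45 and 0.32 with the siRNAs. CENPQ was therefore among the higher members in FaDu while its PC3 value differed little between miR-99a-3p, miR-150-3p and miR-100-3p. CENPP, of the same complex, had the value nearest to 0 of the CCAN in PC3, −0.34 (spot error 0.211) with miR-99a-3p, and −0.03, −0.09 and 0.19 with miR-150-3p, miR-100-3p and miR-150-5p. It had 0.14 and 0.11 with miR-99a-3p and miR-99a-5p in FaDu and 0.15 and −0.13 with the siRNAs in PANC-1, but its other probe gave another result, as described with the probes below.

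In the inner centromere, 4 of the 5 genes lay below −1 in PC3 cells with miR-99a-3p, against 7.39% of all detected genes. In FaDu 2 lay above 1, against 8.25% of all. BIRC5 (survivin), INCENP and CDCA8 (borealin) are the non-kinase subunits of the chromosomal passenger complex, which corrects wrong attachments through the kinase AURKB. BIRC5 had a signal of 65355 in mock and 12284 in transfected PC3 cells with miR-99a-3p, a log2 ratio of −2.41 with an SD of 0.029 between 10 spots of the array. It had −0.74 with miR-100-3p, −0.62 with miR-150-3p and −0.43 with miR-150-5p. In FaDu BIRC5 had 1.21 with miR-99a-3p (SD 0.026 between 10 spots) and 0.44 with miR-99a-5p, and in PANC-1 0.13 and −0.20 with the siRNAs. CDCA8 had −2.12 in PC3 and 1.19 in FaDu with miR-99a-3p, close to BIRC5 within the spot errors. INCENP, the scaffold of the complex, had −1.44 with miR-99a-3p, −0.54 with miR-150-3p, −0.39 with miR-100-3p and −0.03 with miR-150-5p in PC3, 0.88 with miR-99a-3p and 0.60 with miR-99a-5p in FaDu, and 0.28 and 0.16 in PANC-1.

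The shugoshins SGOL1 and SGOL2 protect the cohesion of sister centromeres, and their current symbols are SGO1 and SGO2. SGOL1 had −2.37 (spot error 0.305) with miR-99a-3p in PC3, −0.67 with miR-150-3p, −0.66 with miR-100-3p and −0.03 with miR-150-5p. In FaDu it had 0.40 with miR-99a-3p and 0.50 with miR-99a-5p, which do not differ beyond their errors, and in PANC-1 0.32 and −0.07. SGOL2 had −0.66 (0.217) with miR-99a-3p and −0.62 with miR-100-3p in PC3, −0.15 with miR-150-3p and −0.07 with miR-150-5p. In FaDu it had 0.62 with miR-99a-3p and 0.80 with miR-99a-5p, and in PANC-1 0.54 and −0.06. The 2 shugoshins therefore differed in PC3 cells with miR-99a-3p by more than their errors. SGOL1, ZWINT and CASC5 are among the genes the study itself chose for their decrease on this array, so that their values there are no independent evidence of a direction.

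In the NDC80/MIS12 network, the genes of the NDC80 complex were lower throughout in PC3 cells with miR-99a-3p, while the MIS12 complex was divided. NDC80 had −2.24, NUF2 −2.38, SPC24 −1.97 and SPC25 −3.04 (spot error 0.349), and in FaDu the same genes had 0.63, 0.93, 1.27 and 1.43. These 4 proteins form the rod that grips the microtubule. The SPC25 probe lies at chr2:169727956-169728015 of hg19, in an annotated SPC25 transcript. It had a signal of 2091 in mock and 255 in transfected PC3 cells, 8.21-fold less. On the other PC3 arrays it had −1.10 with miR-150-3p, −0.87 with miR-100-3p and −0.56 with miR-150-5p, on the other FaDu array 0.26, and in PANC-1 0.34 and 0.04. SPC25 had the widest range over the 8 arrays of the 33 genes measured in both channels throughout, 4.46.

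Of the MIS12 complex, DSN1 had −1.37 in PC3 and 0.86 in FaDu with miR-99a-3p, whereas the other 3 subunits lay within 1 of 0 on all 8 arrays. PMF1 had 0.16 (spot error 0.205) with miR-99a-3p, 0.00 with miR-150-5p, −0.02 with miR-100-3p and −0.18 with miR-150-3p in PC3. It had 0.10 with miR-99a-3p and −0.07 with miR-99a-5p in FaDu, and −0.34 and 0.11 with the siRNAs in PANC-1, the narrowest range of the 37 genes, 0.492. NSL1 had −0.38 (0.227) with miR-99a-3p, −0.18 with miR-150-3p, 0.14 with miR-100-3p and 0.39 with miR-150-5p in PC3, 0.05 and −0.15 with miR-99a-3p and miR-99a-5p in FaDu, and 0.35 and −0.37 in PANC-1. NSL1 thus showed no common direction. MIS12 had −0.48 in PC3 and −0.26 (0.206) in FaDu with miR-99a-3p, and it was the 1 member below 0 on that FaDu array.

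CASC5, the current KNL1, is the scaffold to which checkpoint proteins bind, and it had −2.35 in PC3 and 0.96 in FaDu with miR-99a-3p. ZWINT, its partner (probe at chr10:58117345-58117404 of hg19), had a signal of 21174 in mock and 3039 in transfected PC3 cells, a log2 ratio of −2.80 (spot error 0.330). It had −0.86 with miR-150-3p, −0.63 with miR-100-3p and −0.46 with miR-150-5p in PC3, 0.98 with miR-99a-3p and 0.23 with miR-99a-5p in FaDu, and 0.28 and 0.19 with the siRNAs. Of the SKA complex, which tracks with microtubule ends, SKA3 had −2.10 in PC3 and 1.64 in FaDu, the highest value of the 37 genes. SKA1 was at least 5.84-fold lower in PC3 (mock signal 429), and in FaDu it had 0.17 (0.217) with miR-99a-3p and 0.74 with miR-99a-5p. The 2 SKA genes therefore differed in FaDu cells with miR-99a-3p by more than their errors.

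In the checkpoint and corona, 5 of the 7 genes lay below −1 in PC3 cells with miR-99a-3p, against 7.39% of all detected genes. ZWILCH, ZW10 and KNTC1 form the RZZ complex, which builds the corona of the unattached kinetochore, and their values were far apart. The ZWILCH probe lies at chr15:66841152-66841211 of hg19, in an annotated ZWILCH transcript. It had −3.12 (spot error 0.357) with miR-99a-3p in PC3, the lowest of the 33 members measured in both channels, with a signal of 1205 in mock and 138 in transfected cells, and it had −0.86 with miR-150-3p, −0.55 with miR-100-3p and −0.51 with miR-150-5p. In FaDu ZWILCH had only 0.28 with miR-99a-3p and 0.33 with miR-99a-5p, and in PANC-1 0.05 and 0.10. KNTC1 had −1.95 in PC3 and 0.95 in FaDu with miR-99a-3p. ZW10 had −0.57 (0.211) with miR-99a-3p, −0.59 with miR-100-3p, −0.47 with miR-150-5p and −0.15 with miR-150-3p in PC3, 0.19 and −0.05 in FaDu with miR-99a-3p and miR-99a-5p, and 0.09 and −0.18 in PANC-1. For ZW10 the miR-99a-3p value did not stand apart from those with miR-100-3p and miR-150-5p.

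CENPF, a large corona protein that also binds microtubules, had −2.51 (spot error 0.309) with miR-99a-3p, −0.65 with miR-100-3p, −0.40 with miR-150-3p and 0.05 with miR-150-5p in PC3. In FaDu it had 0.88 with miR-99a-3p and 0.61 with miR-99a-5p, and in PANC-1 0.31 and 0.13. A second, dimmer CENPF probe had only 0.19 (0.214) with miR-99a-3p and 0.25 with miR-99a-5p in FaDu. MAD2L1 binds CDC20 in the checkpoint complex, and both were lower in PC3 and higher in FaDu with miR-99a-3p, MAD2L1 at −2.07 and 1.31 and CDC20 at −2.10 and 0.60. BUB3, which brings the BUB kinases to the kinetochore, had −0.77 (0.216) with miR-99a-3p, −0.41 with miR-100-3p, −0.32 with miR-150-3p and −0.13 with miR-150-5p in PC3. It had 0.28 and 0.25 with miR-99a-3p and miR-99a-5p in FaDu, and −0.03 and −0.30 in PANC-1. ZW10 and BUB3, both known to act outside mitosis as well, were the 2 members of this part above −1.

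Gene by gene, 35 of the 37 genes lay below 0 in PC3 and above 0 in FaDu with miR-99a-3p, against 23.6% of the genes detected on both arrays. The exceptions were PMF1, above 0 in both lines, and MIS12, below 0 in both. Of the 37 genes, 24 were measured in both channels and lay more than 2 spot errors from 0 in both lines. The FaDu value less the PC3 value had a median of 2.73 over the 33 genes measured in both channels and ran from −0.05 for PMF1 to 4.46 for SPC25 among them. The order of the genes was not the same in the 2 lines. ZWILCH, SGOL1, SKA1 and CENPN, all under −1.5 in PC3, had between 0.14 and 0.40 in FaDu, whereas CENPQ combined −0.66 with 1.32. With 1 array per line the difference between the lines was not tested.

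**Figure D3:**
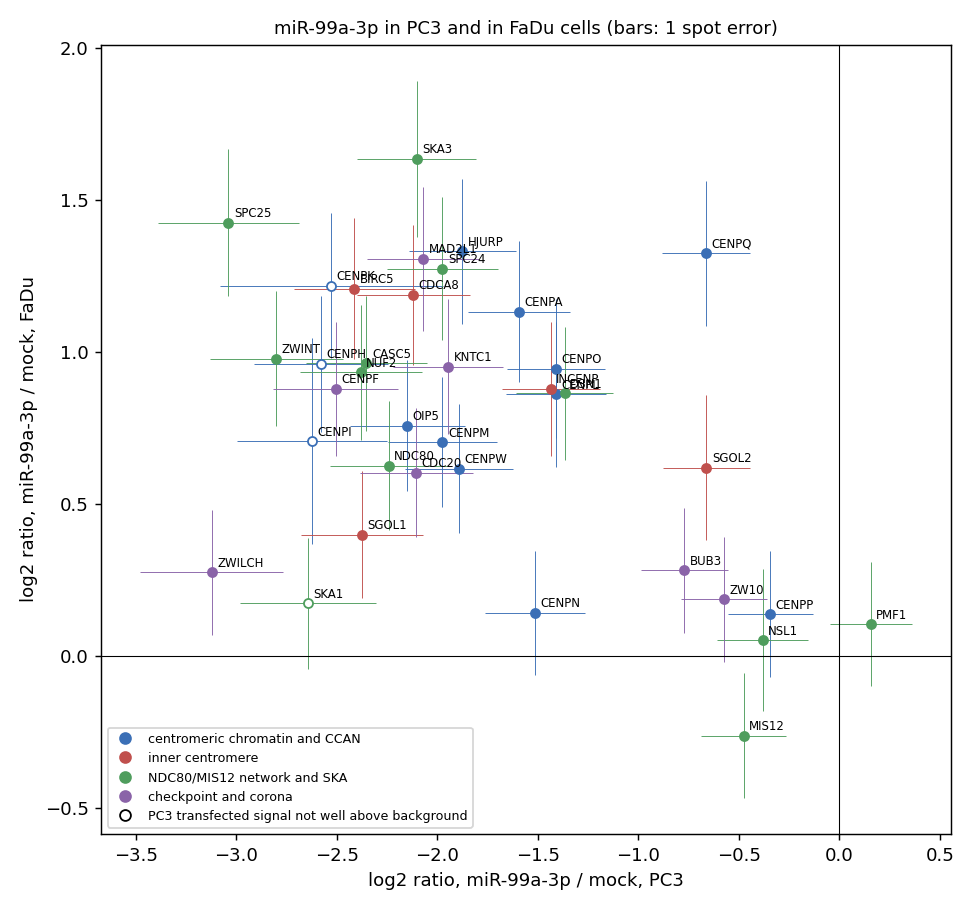
Log2 ratio of miR-99a-3p over mock in PC3 (horizontal axis) and FaDu (vertical axis) for the 37 genes, with bars of 1 spot error and an open point where the PC3 transfected signal was not well above background. Points lie at the upper left, except PMF1 (0.16 and 0.10) and MIS12 (−0.48 and −0.26).

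Within lines, arrays were compared in pairs. In PC3, 35 of the 37 genes had a lower ratio with miR-99a-3p than with miR-100-3p, against 47.8% of all genes detected on both arrays, and the exceptions were ZW10 and PMF1. The median difference was −1.32 over the 33 genes measured in both channels. At its bound CENPK would not lie lower. With miR-150-3p, 32 genes had a lower ratio than with miR-150-5p, the other arm of its hairpin, against 51.2% of all, and the median difference was −0.39. In FaDu, 30 genes had a higher ratio with miR-99a-3p than with miR-99a-5p, against 50.6% of all, with a median difference of 0.37. In PANC-1, 29 genes had a higher ratio with si-FOXQ1-1 than with si-FOXQ1-2, against 48.2% of all, with a median difference of 0.18. Over the 8 arrays, 35 genes had their lowest ratio in PC3 with miR-99a-3p, against 19% of the genes detected on every array, and among the 33 genes measured in both channels these were 31.

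The spread of the mock cells was read from the Cy3 channels, normalized between arrays. Whether the mock channels of a line came from separate cultures is not stated, so they may share RNA, and the arrays of a line then share their control. Over the 4 PC3 mock channels the members had a median SD of 0.085 on the log2 scale, between 0.026 and 0.195, and their widest range was 0.370. The transfected signal lay below all 4 PC3 mock signals for 35 members with miR-99a-3p (38.2% of all genes), 36 with miR-150-3p (37.9%), 33 with miR-100-3p (34.6%) and 22 with miR-150-5p (34.6%). In FaDu it lay above both mock signals for 36 members with miR-99a-3p (45.9% of all) and 32 with miR-99a-5p (40.6%), and in PANC-1 for 28 with si-FOXQ1-1 (39.8%) and 16 with si-FOXQ1-2 (42.1%). For si-FOXQ1-2 and the members, this share is close to that of all genes. The mock channel of the miR-100-3p array was the lowest of the PC3 mock channels for these genes, with a median of −0.10 from the gene's PC3 mean, against 0.07 on both miR-150 arrays and −0.04 on the miR-99a-3p array. Against the mean of the 4 mock channels the median log2 ratio was −1.65 with miR-99a-3p, −0.60 with miR-100-3p, −0.49 with miR-150-3p and −0.17 with miR-150-5p. These values use signals processed by normexp and loess, as described below, and not the deposited ratios. With that processing the medians against the array's own mock channel were −1.58, −0.52, −0.55 and −0.24 in the same order.

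The levels in mock cells differed between the lines in both directions, for the members as for all genes. Only the same probe was compared, in log2 signal. ZWINT had a mean of 13.99 in the 4 PC3 mock channels (range 13.88 to 14.11), 11.76 in the 2 FaDu channels and 11.97 in the 2 PANC-1 channels, so that PC3 lay 2.23 above FaDu and 2.01 above PANC-1 with no overlap. BIRC5 lay 1.72 and 1.25 higher in PC3 than in FaDu and PANC-1. Other members were lower in PC3. The PC3 mean less the FaDu mean was −1.18 for CENPN and −1.13 for MIS12, and the PC3 mean less the PANC-1 mean was −1.41 for CENPH. For HJURP the FaDu mean less the PANC-1 mean was −1.71. All PC3 mock signals exceeded both FaDu signals for 23 members (41% of all genes) and lay under them for 10 (42.9%). Against PANC-1 they were higher for 13 (38.6%) and lower for 17 (40.6%). These are 35.1% and 45.9% of the members, close to the shares of all genes. FaDu was higher than PANC-1 for 10 (45.1%) and lower for 25 (44.7%). The median difference of the members was 0.29 for PC3 less FaDu, −0.04 for PC3 less PANC-1 and −0.32 for FaDu less PANC-1. After transfection with miR-99a-3p these levels crossed. ZWINT was at 11.16 in PC3 and 12.73 in FaDu, and HJURP, at 11.64 and 10.97 in the mock cells of the 2 arrays, was at 9.74 in PC3 and 12.18 in FaDu.

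**Figure D4:**
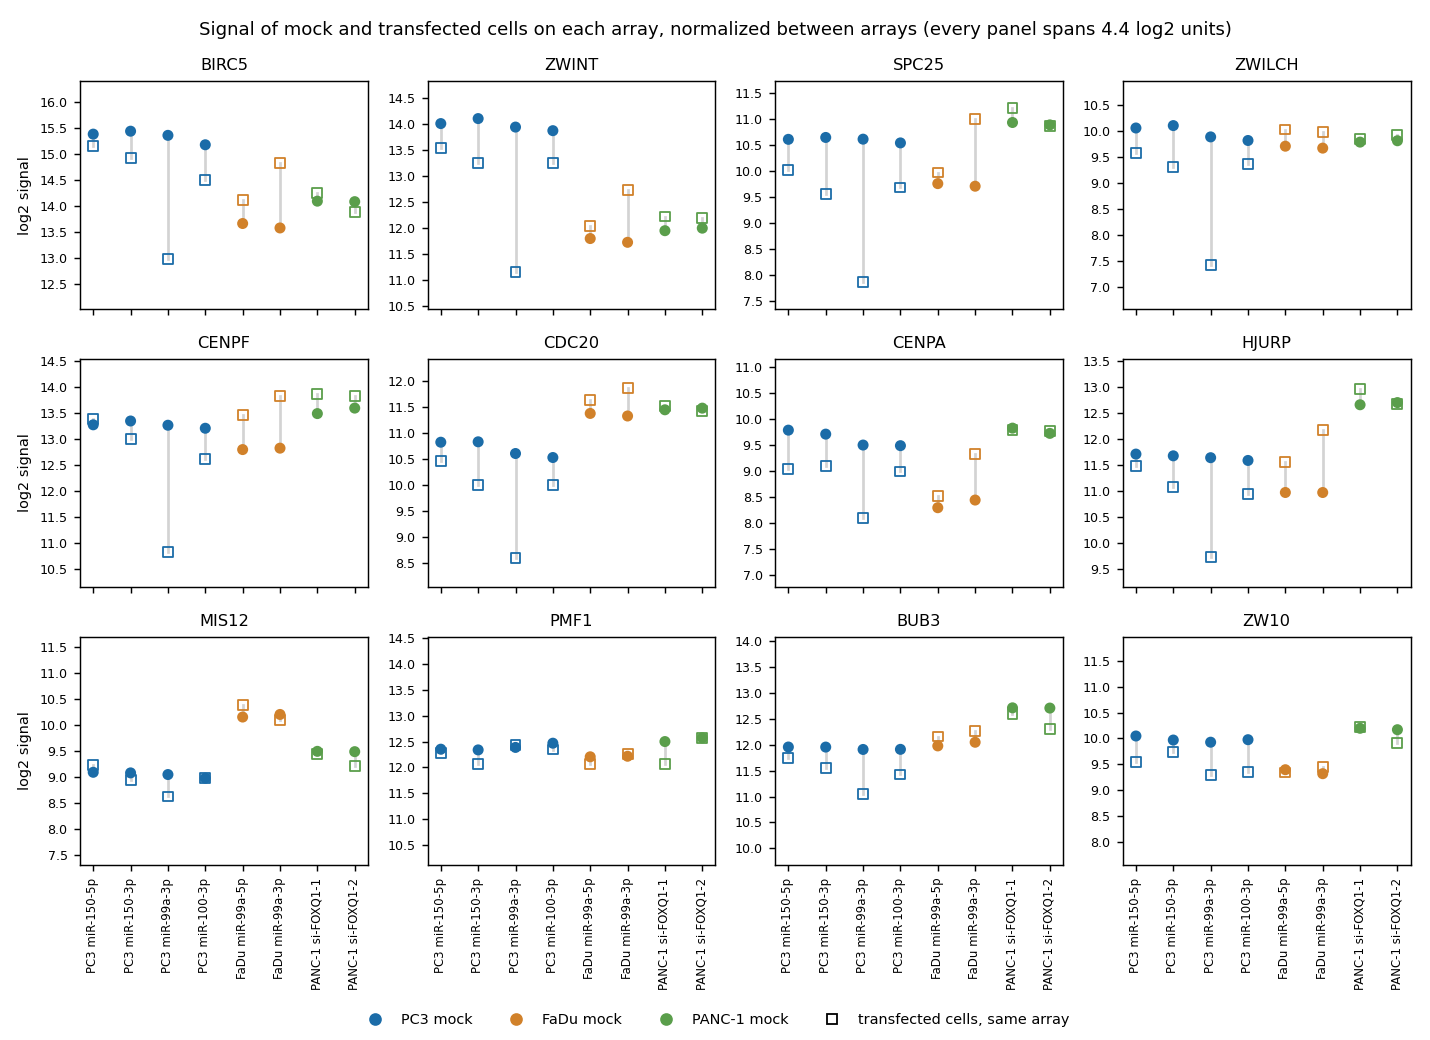
Log2 signal (vertical axis) of mock cells (filled circles, coloured by line) and transfected cells (open squares) on the 8 arrays (horizontal axis) for 12 genes picked from the parts after their values were seen, with a line joining the channels of an array. For ZWINT the 4 PC3 mock circles lie between 13.88 and 14.11 and the miR-99a-3p square at 11.16, whereas for PMF1 the circle and square of that array lie at 12.39 and 12.44.

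Several probes measured 13 of the 37 genes, and in 9 of them all probes lay on the same side of −1 on the PC3 miR-99a-3p array. CENPP was the largest exception. Its brightest probe, at chr9:95377376-95377435 of hg19, had −0.34 (spot error 0.211), and its other probe, at chr9:95375371-95375430 and assigned by the array's annotation to the same transcript, had −2.27 (0.298), both above background in both channels. In FaDu cells with miR-99a-3p these probes had 0.14 and 1.17. The second CENPP probe thus lay with the other CCAN genes on both arrays, and which of the probes measures the CENPP mRNA was not tested. For CENPN the second probe, at chr16:81065028-81065087 and assigned to another transcript than the brightest, had −0.85 in PC3 and 1.01 in FaDu, against −1.51 and 0.14. For BUB3 the second probe had −1.09 in PC3 and −0.15 in FaDu, against −0.77 and 0.28, so that its direction in FaDu depends on the probe. The second probe of SGOL2 had −1.78 with a spot error of 0.835 and was not above background in the transfected cells. The second probe of SGOL1 had −3.49, also without a transfected signal above background, and the 2 PMF1 probes differed by less than their errors. Among the 9 genes with all probes on the same side of −1, the second CASC5 probe (−1.55, spot error 1.00) was above background in neither channel. The second CENPF probe (−2.81) was above background only in mock cells. For CASC5, CENPF and SGOL1 the count thus includes a probe without a transfected signal above background.

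**Figure D5:**
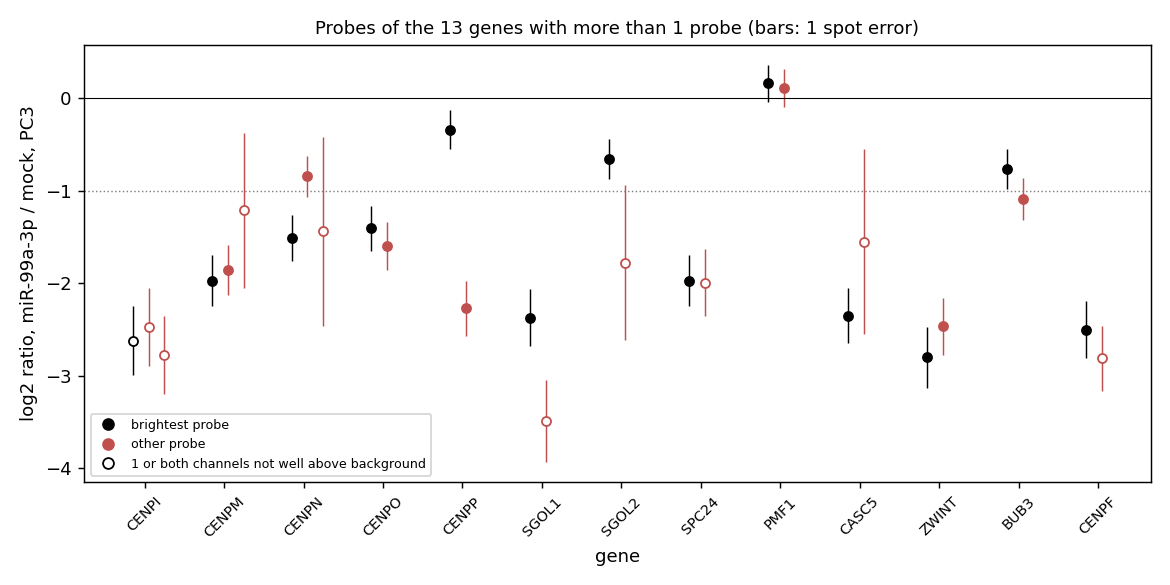
Log2 ratio of miR-99a-3p over mock in PC3 (vertical axis) for each probe of the 13 genes with more than 1 probe (horizontal axis), with bars of 1 spot error, black for the brightest probe and open points where a channel was not well above background. The CENPP probes lie farthest apart among pairs measured in both channels, at −0.34 and −2.27, and both PMF1 probes lie above 0.

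Kinetochore genes outside the 37 were looked at in a list of 24, all with a probe and all detected on every array. The list was chosen with earlier results of these data known, so its values are no independent evidence of a direction. In PC3 cells with miR-99a-3p their median was −1.50, and 14 lay below −1, against 7.39% of all genes. The lowest were TTK (MPS1), the kinase that starts the checkpoint, at −2.77, CENPU, which anchors PLK1, at −2.66, and the checkpoint gene BUB1B at −2.26. The highest were NDEL1 at 0.53, the CCAN foundation CENPC at 0.22 and NDE1 at −0.00. NDEL1 and NDE1 are dynein regulators that also act outside mitosis. In FaDu the list had a median of 0.50, and 3 lay above 1, against 8.25% of all.

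The APC/C, which CDC20 activates, went less far. Its 17 genes had a median of −0.29 in PC3 cells with miR-99a-3p, with 2 below −1, against 7.39% of all genes. In FaDu their median was 0.24, with none above 1, against 8.25% of all. The lowest in PC3 were the ubiquitin-conjugating enzymes of the complex, UBE2C at −2.96 and UBE2S at −1.19, followed by the core subunit ANAPC13 at −0.67. The highest were ANAPC16 at 0.62, the alternative activator FZR1 at 0.18 and ANAPC4 at −0.01. CDC20, at −2.10, thus lay with UBE2C rather than with the core subunits.

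Promoters were read because most of the 37 genes lay on the same side of 0 on an array. RefSeq promoters of 300 bases, 250 before and 50 after the start, were found for 30 of the 37 genes. The cell cycle genes homology region (CHR), through which the DREAM and MMB complexes time late cell cycle genes, was searched as TTTGAA or TTTAAA on both strands. It was present in 17 of the 30 promoters (56.7%), against 24.0% of all 35116 promoters. The CCAAT box, bound by NF-Y and searched as CCAAT on both strands, was in 21 (70.0%), against 34.6% of all, and both motifs were in 12 (40.0%), against 9.27% of all. E2F sites, searched as TTTCGCGC, TTTGGCGC or TTTCCCGC on both strands, were in 3 (10%), against 2.74% of all. Matches of different motifs can share bases. A match is a description and not a bound site.

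The CHR matches nearest the start of 6 genes of different parts are printed on the gene's strand, with the motif in capitals, in GRCh38.p14.
CENPA: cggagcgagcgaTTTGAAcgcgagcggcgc
INCENP: tgagccttcagtTTTGAAaatcatagtttt
CDCA8: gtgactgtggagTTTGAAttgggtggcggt
SPC25: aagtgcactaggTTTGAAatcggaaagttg
ZWINT: gtcgactgtgacTTCAAAgtaatcttaggg
CDC20: cgacggttggatTTTGAAggagccaatagg
They lie at chr2:26786026-26786055 (plus strand) for CENPA, chr11:62123989-62124018 (plus) for INCENP, chr1:37692481-37692510 (plus) for CDCA8, chr2:168890416-168890445 (minus) for SPC25, chr10:56361273-56361302 (minus) for ZWINT and chr1:43358904-43358933 (plus) for CDC20. The first base of the motif is 18, 10, 23, 3, 31 and 65 bases before the start in the same order, and in ZWINT the motif is read on the other strand. In PC3 cells with miR-99a-3p the 17 genes with a CHR had a median of −2.10, from −3.04 to −0.57, and the 13 without had −1.89, from −3.12 to 0.16. Of those measured in both channels, the 16 with a CHR had −2.09 and the 11 without −1.37. In FaDu the medians were 0.93 and 0.62, from 0.14 to 1.64 and from −0.26 to 1.32. ZWILCH had no CHR in this window, and ZW10 had one 224 bases before the start.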

How the data were processed

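The authors scanned each array with Agilent Feature Extraction 10.7.3.1, which subtracted the background, normalized the dyes within the array by a linear and lowess fit and gave surrogate values to signals not above background. The deposited intensities of both channels and the deposited log10 ratio of Cy5 over Cy3 come from that run, and the values of the series table equal the scanner ratios (largest difference 0). No column was left out for lack of a sample. Probe positions follow hg19, per the file headers.

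The log10 ratios were converted to log2. Spots with an outlier flag, and control spots, were removed (81 to 178 gene spots per array, of 60901), spots of a probe were averaged, and the brightest of a gene's probes, by mean log2 signal over all channels, stood for it (58201 probes, 43317 genes). A gene was detected if more than 0.5 of its spots were well above background in 1 or both channels. Cy3 was above background at 44.5% to 49.2% of gene spots and Cy5 at 37.2% to 41.8%, and no spot was saturated. The number of arrays, 1 per condition, limits the precision. Samples were grouped by the titles of the labels, and all 8 were used. Single-channel values came from limma 3.58.1 in R 4.3.3 (normexp with an offset of 50, loess, then Aquantile). Other steps used Python 3.11.15 with pandas 2.3.3, numpy 2.4.6 and matplotlib 3.10.9. The limma step was tested on simulated data for the array of PC3 cells with miR-99a-3p (200 of 60901 probes changed), where 100% had the right direction and the slope against the simulated ratio was 0.905.

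The members and lists were chosen with earlier results of these data known. Named with their value on every array were, in each part, the 2 lowest and the 2 highest members in PC3 cells with miR-99a-3p, of those measured in both channels, and any member whose probes lay on both sides of −1 there, and other members were given for the miR-99a-3p arrays. Of the lists outside, the 3 lowest and 3 highest were named. Alternatives were normexp and loess, the series values, 2 other filters, the mean and the lowest probe, outlier spots kept, the mean mock of the line, centring, other thresholds (0.58 and 2), bounds and leaving out mock channels. Through transcripts or symbols, 37 of the 37 members matched RefSeq genes of GRCh38.p14, and 3 of them now carry another symbol. No coordinates were converted. Sequence tables covered 30 members' promoters and 3 of the miRNAs.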

Additional observations from a re-analysis of the deposited data

Results flagged for a closer look

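Under miR-99a-3p the kinetochore and centromere genes had opposite directions in the 2 cell lines, with a median log2 ratio of −1.97 in PC3 and 0.86 in FaDu. For 35 of the 37 genes PC3 lay below 0 and FaDu above 0, and that is what singled them out. With 1 array per line the difference was not tested. The FaDu log2 ratio less the PC3 log2 ratio is given for each. In centromeric chromatin and CCAN the genes were CENPA (2.73), HJURP (3.21), OIP5 (2.91), CENPH (3.54), CENPI (3.33), CENPK (3.75), CENPL (2.27), CENPM (2.68), CENPN (1.66), CENPO (2.35), CENPP (0.48), CENPQ (1.99) and CENPW (2.51). In the inner centromere they were INCENP (2.32), BIRC5 (3.62), CDCA8 (3.31), SGOL1 (2.77) and SGOL2 (1.28). In the NDC80/MIS12 network with SKA they were NDC80 (2.87), NUF2 (3.31), SPC24 (3.25), SPC25 (4.46), DSN1 (2.23), NSL1 (0.43), CASC5 (3.31), ZWINT (3.78), SKA1 (2.81) and SKA3 (3.74). In the checkpoint and corona they were MAD2L1 (3.38), BUB3 (1.05), ZW10 (0.76), ZWILCH (3.40), KNTC1 (2.90), CENPF (3.38) and CDC20 (2.71). The values of CENPH, CENPI, CENPK and SKA1 rest on a PC3 signal that was not well above background. For BUB3 the second probe lay below 0 in both lines (−1.09 and −0.15), so that its opposite direction depends on the probe. The smallest differences, for NSL1, CENPP and ZW10, rest on values in FaDu within 1 spot error of 0. So do the larger differences of CENPN and SKA1, with FaDu values of 0.14 (spot error 0.204) and 0.17 (0.217). Among the 4 PC3 mock channels, none of the 37 genes had an outlying signal by Dixon's rule. With 4 values that rule can flag only a single channel far from the rest. A split of the channels into pairs would go unseen, so the result does not show that the mock channels were alike.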

How the results depend on the processing

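Under the alternatives, no member beyond 1 on the log2 scale changed sign. Of the values of single genes, 2552 moved by less than their spread and 108 by more. Of the summary values, 575 were rated the same and 33 moved. Medians were rated against the spot error, and counts by their ratio to the main count. The series values equal the main values and could not move. With normexp (offset 50) and loess the median of the members on the PC3 miR-99a-3p array was −1.58, and the part medians were −1.41 in centromeric chromatin and CCAN, −1.82 in the inner centromere and −1.65 in the NDC80/MIS12 network. With the mean mock of the line they were −1.65 for all members, −1.53 in centromeric chromatin and CCAN and −1.66 in the NDC80/MIS12 network. The mean mock setting uses the normexp signals too. With both channels above background centromeric chromatin and CCAN had −1.55. On that array 18 members had a deposited ratio below −2, 14 of them measured in both channels. Of the single values moved by normexp or the mean mock, 52 of 52 moved toward 0, and the offset does so by construction for dim spots. With miR-150-3p the count below −1, 3 members, was 1 with normexp or the mean mock, 6 with the mean over probes, 7 with the lowest probe, 19 at 0.58 and 0 at 2. With miR-100-3p the count, 0, was 1 with the mean over probes or the mean mock, 2 with the lowest probe and 16 at 0.58. With miR-150-5p it was 1 with the lowest probe and 3 at 0.58, and centromeric chromatin and CCAN had a median of −0.53 with the lowest probe. In FaDu with miR-99a-5p, 1 member lay below −1 with the lowest probe, and 0 lay above 1 with normexp, the mean over probes, the lowest probe, the mean mock or at 2, but 10 at 0.58. With miR-99a-3p in FaDu, 27 lay above 0.58 and 0 above 2, and the checkpoint and corona had a median of 0.28 with the lowest probe. With si-FOXQ1-1, 1 member lay above 0.58.

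Leaving out each mock channel in turn, the members with all PC3 mock signals above FaDu were 23 to 24 and below 10 to 11, above PANC-1 13 to 14 and below 17 to 18, and FaDu was above PANC-1 for 10 and below for 25 to 27. Members below every mock signal of PC3 were 22 to 24 with miR-150-5p, 36 to 37 with miR-150-3p, 35 to 36 with miR-99a-3p and 33 to 34 with miR-100-3p. Members above every mock signal were 33 to 34 with miR-99a-5p and 36 with miR-99a-3p in FaDu, 29 to 30 with si-FOXQ1-1 and 18 to 20 with si-FOXQ1-2. Leaving out a channel can only keep or raise such counts, so these ranges do not test whether the counts are stable. No paired analysis was possible because no group holds a second array. The causes of these shifts were not tested. Dim transfected signals limit CENPH, CENPI, CENPK and SKA1 in PC3 to bounds, which would be 5.98, 4.42, 1.87 and 6.24 against a lower limit, which was 45.8, the dimmest Cy5 value called well above background, for CENPI and CENPK, and the probe's own brighter value for CENPH and SKA1.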
